A study of Rattus norvegicus with 5 samples.

Results

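Nitric oxide synthesis was followed in retinal Müller cells of normal and diabetic rats through 7 genes: the nitric oxide synthases Nos1, Nos2 and Nos3, the cofactor gene Gch1, the arginine genes Ass1 and Arg1, and Ddah1. They are 7 of the 4736 genes with a probe set of their own on the array, and held 21 of its 8799 probe sets, counting each whose single listed symbol is that of a member. Another 3 probe sets are listed with both Nos2 and its pseudogene Nos2-ps1, and their values are given separately because they cannot be assigned to either. The members were chosen by the difference between diabetic and normal signal already seen for Nos2 and Ddah1, together with their pathway partners, so that difference is a description here for all 7 genes, and no test of it is reported.

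Müller cells, the radial glia that span the retina, were taken from male Sprague-Dawley rats, and total RNA was hybridised to 5 Affymetrix RG_U34A arrays. The normal group held 3 arrays from healthy rats, each with cells pooled from the retinas of 12 rats, and arrays 2 and 3 are labelled biological replicates. The diabetic group held 2 arrays with cells pooled from 12 rats 6 months after streptozotocin, a toxin of the insulin-producing beta cells, and these rats received small doses of insulin to limit catabolism. Diabetic array 2 is labelled a technical replicate, and its experiment record describes it as a repeat run, so both diabetic arrays count as 1 pool. Pooled retinas hide the spread between animals, and in pooled cells a lower share of a cell type and less RNA per cell cannot be told apart.

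Nitric oxide synthases make nitric oxide and citrulline from arginine with tetrahydrobiopterin as a cofactor. Nos1, the neuronal form, and Nos3, the endothelial form, are switched on by calcium and calmodulin, whereas Nos2, the inducible form, is regulated mainly by how much of it is transcribed and is known from activated macrophages and glia. Gch1 encodes GTP cyclohydrolase, the first enzyme of tetrahydrobiopterin synthesis. Ass1 encodes argininosuccinate synthase, which recycles citrulline towards arginine, and Arg1 encodes an arginase that consumes arginine. Ddah1 encodes a hydrolase that breaks down asymmetric dimethylarginine, an endogenous inhibitor of all nitric oxide synthases.

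Median deposited signals ran from 27.9 to 91.3 between arrays, so the values were quantile normalised, which gives every array the same distribution of signals. Values under a floor of 20 (4.32 on the log2 scale) were raised to it, and the 6118 brightest probe sets over both groups were tested. Without scaling, the median difference of all tested probe sets moved from -0.01 to 0.47 on the log2 scale, so differences are given on the normalised scale. Actin probes at the 3′ end were 2.61 times as bright as those at the 5′ end on normal array 1, 2.55 times on diabetic array 2 and 1.46 to 1.76 times elsewhere, where a high ratio is a sign of degraded RNA. For probes of Gapdh, a second control gene, the same ratio was 1.16 on normal array 1, 1.35 on diabetic array 2 and 1.03 to 1.24 elsewhere. Gapdh thus did not set normal array 1 apart. Normal array 3 and diabetic array 2 shared a chip lot and day. Of 10 Müller cell marker genes measured, none was at the floor on all arrays, and their summed normalised signal was 36675 to 48109 on normal and 42242 to 43298 on diabetic arrays.

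A single probe set of Nos2 and a single probe set of Ddah1 stood clearly higher in the diabetic pool, and the remaining members did not follow them. Of the 21 probe sets, 12 passed the filter on dim signals, 8 of them above and 4 below the normal mean, with a median log2 difference of 0.11 against -0.01 for all tested probe sets. All 12 would have passed the brightness filter on the normal arrays alone. The 2 probe sets U16359cds_at of Nos2 and D86041_at of Ddah1 were at least 2-fold above normal, as were 2.22% of all tested probe sets. In the same 2 of 12, both diabetic arrays lay above every normal array, which held for 9.53% of all tested probe sets. In 1 of 12, M58364_at of Gch1, both diabetic arrays lay below every normal array, which held for 7.01%. With 1 diabetic pool an exact permutation test cannot give a p below 0.25.

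**Figure D1:**
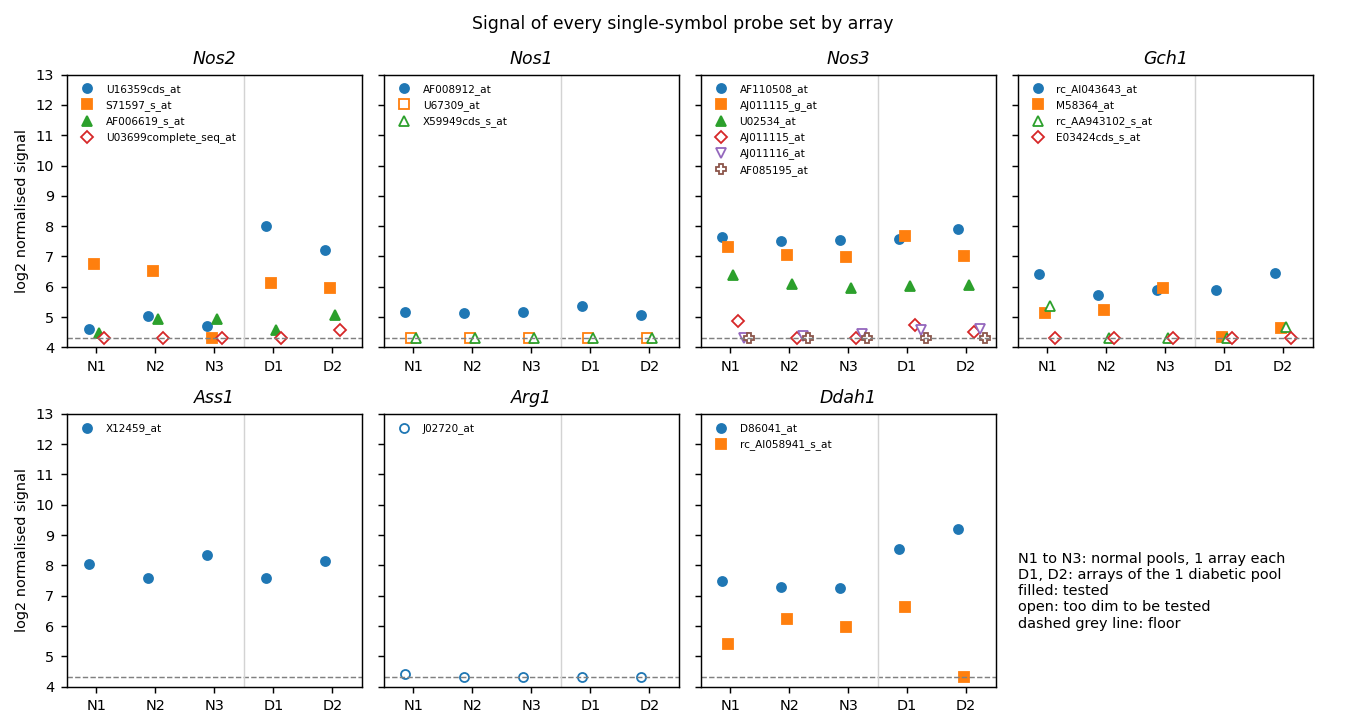
Log2 normalised signal (vertical axis) of all 21 single-symbol probe sets on the 3 normal arrays (N1 to N3) and the 2 diabetic arrays (D1, D2), 1 panel a gene, with filled symbols for the 12 tested probe sets. U16359cds_at of Nos2 and D86041_at of Ddah1 are the 2 tested probe sets with both diabetic arrays above all normal arrays.

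Across the whole table, limma called 0 of 6118 probe sets at an adjusted p under 0.05 (0% called; lowest adjusted p 0.495) and 98 at an unadjusted p under 0.05 (1.6%), of which 73 lay above normal. No other tool was run. The count of 98 was 34 unscaled, all above normal, and 63 with arrays scaled to a common median, of which 56 lay above. Leaving out normal array 1 gave 285 and leaving out normal array 2 gave 54, while omitting diabetic array 1 gave 242 and omitting diabetic array 2 gave 287.

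For Nos2, the probe set U16359cds_at had normalised signals of 24.2, 32.6 and 26.4 on normal arrays 1 to 3, and of 256.6 and 149.3 on diabetic arrays 1 and 2. The deposited signals before normalisation were 18.7, 15.4 and 38.1 on the normal arrays against 277.3 and 175.4 on the diabetic arrays. Both scales put the diabetic arrays far above all normal arrays, and the normalised signals of the normal arrays lay just above the floor. The log2 difference was 2.83 (SE 0.48, 3 normal pools and 1 diabetic pool), or 7.11-fold, compared with an SD of 0.22 between the normal pools. Each of the 6 pairings of a diabetic with a normal array gave a higher diabetic value, by 2.19 to 3.40 on the log2 scale.

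The other probe sets of Nos2 did not show this difference. S71597_s_at, whose suffix marks probes shared by several transcripts, had normalised signals of 107.4, 91.1 and 12.8 on the normal arrays and of 70.4 and 62.3 on the diabetic arrays. Normal array 3 alone was below the floor, the other normal arrays were the brightest of the 5, and the groups overlapped. Its log2 difference of 0.19 (SE 1.03) became -0.55 without normal array 3. Between the normal and diabetic arrays that share a chip lot it was 2.12 with those arrays normalised on their own, and 1.64 on the values given here. AF006619_s_at read 22.4, 30.9 and 30.9 on the normal arrays and 24.0 and 33.4 on the diabetic arrays, a difference of 0.03 (SE 0.49) with overlapping groups. The untested U03699complete_seq_at was at the floor on 4 arrays and reached 23.7 on diabetic array 2.

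The 3 probe sets shared with the pseudogene Nos2-ps1 did not separate the groups either. D83661_s_at read 39.1 to 69.1 on normal arrays and 76.5 and 38.8 on diabetic arrays, a log2 difference of 0.20 (SE 0.56). U48829_s_at read 50.6 to 98.6 on normal arrays and 51.1 and 48.8 on diabetic arrays, a difference of -0.48 (SE 0.55). D44591_s_at was too dim to be tested and read 37.0 on diabetic array 2 against 13.9 to 20.8 on normal arrays and 19.5 on diabetic array 1. The large Nos2 difference therefore rested on 1 of the 4 probe sets listed for Nos2 alone.

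**Figure D2:**
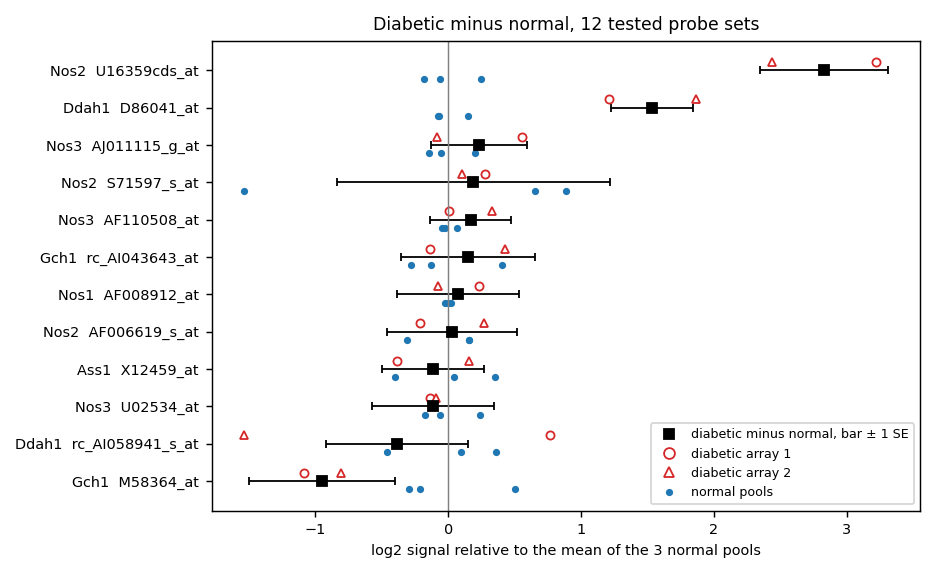
Log2 signal relative to the mean of the 3 normal pools (horizontal axis) for the 12 tested probe sets, with the diabetic minus normal difference and its SE (black squares and bars), the diabetic arrays (red) and the normal pools (blue). The Nos2 values run from 0.03 to 2.83, and the diabetic arrays lie on opposite sides of the normal pools for rc_AI058941_s_at of Ddah1.

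The calcium-dependent synthases gave no comparable difference. Nos1 was measured by AF008912_at alone, with normalised signals of 36.1, 35 and 35.6 on the normal arrays and of 41.7 and 33.8 on the diabetic arrays. The diabetic arrays lay on either side of the normal arrays, which were within 0.05 of each other on the log2 scale, and the difference was 0.08 (SE 0.46). The remaining 2 probe sets of Nos1, U67309_at and X59949cds_s_at, were at the floor on all 5 arrays.

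Nos3 had 3 tested probe sets, and none separated the groups. AF110508_at read 200.1, 184.4 and 187.9 on the normal arrays and 192.0 and 239.1 on the diabetic arrays, a log2 difference of 0.17 (SE 0.31). AJ011115_g_at read 158.8, 133.1 and 125.2 against 203.0 and 130.6, a difference of 0.24 (SE 0.36) in which diabetic array 1 was high and diabetic array 2 lay among the normal arrays. U02534_at read 83.8, 68.1 and 62.7 against 64.5 and 66.5, a difference of -0.12 (SE 0.46). The 3 probe sets thus differed from normal by -0.12 to 0.24, each by less than its SE. Of the 3 dimmer ones, AF085195_at was at the floor on every array, and AJ011115_at was at the floor on normal arrays 2 and 3 and at no more than 29.1 elsewhere. AJ011116_at stood at 24.1 and 24.4 on the diabetic arrays and at no more than 21.98 on the normal arrays, a log2 difference of 0.22 close to the floor.

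The 2 tested probe sets of the cofactor gene Gch1 did not agree. M58364_at had normalised signals of 35.3, 37.5 and 61.6 on the normal arrays and of 20.4 and 24.8 on the diabetic arrays. Both diabetic arrays were below all normal arrays, at 0.518 of the normal level (log2 difference -0.95, SE 0.55), and the diabetic values were close to the floor. The difference was -0.61 without normal array 3 and -0.10 with a floor of 50. In the deposited signals the groups overlapped, with 26.4, 17.7 and 95.7 on normal and 20.7 and 32.2 on diabetic arrays. The other probe set, rc_AI043643_at, read 86.3, 53.6 and 59.5 on the normal arrays and 59.3 and 87.6 on the diabetic arrays, a difference of 0.15 (SE 0.50) with full overlap. Of the untested ones, E03424cds_s_at was at the floor throughout and rc_AA943102_s_at was above it on normal array 1 (41.2) and diabetic array 2 (25.3) only. Those arrays have the higher actin ratio and were also the brightest for rc_AI043643_at. The part of RNA quality in these values was not tested.

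The arginine genes showed no separation. The single probe set of Ass1, X12459_at, had normalised signals of 262.4, 192.8 and 324.2 on the normal arrays and of 194.3 and 283.1 on the diabetic arrays. The groups overlapped, and the log2 difference of -0.12 (SE 0.38) was smaller than the SD of 0.38 between normal pools. The probe set of Arg1, J02720_at, was at the floor on 4 arrays and at 21.4 on normal array 1, so that no comparison could be made for Arg1.

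Ddah1 had 1 probe set that was higher in the diabetic pool and 1 that was not. D86041_at read 180.0, 154.7 and 154.3 on the normal arrays and 376.0 and 592.5 on the diabetic arrays after normalisation, and 109.4, 72.8 and 254.9 against 403.5 and 666.9 as deposited. The diabetic arrays were above all normal arrays on both scales. The log2 difference was 1.54 (SE 0.31), or 2.90-fold, against an SD of 0.13 between the normal pools, and the 6 pairings of a diabetic with a normal array gave 1.06 to 1.94.

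The second probe set, rc_AI058941_s_at, read 42.3, 74.8 and 62.1 on the normal arrays and 98.9 and 13.1 on the diabetic arrays. Diabetic array 1 was the highest of the 5 and diabetic array 2 the lowest, below the floor, so its difference of -0.39 (SE 0.54) averaged opposite values. It was 0.78 without diabetic array 2 and -1.52 without diabetic array 1. On the 3 arrays with the lower actin ratio, where diabetic array 1 stands alone for the diabetic pool, it was 0.57. Between the normal and diabetic arrays that share a chip lot it was -2.11 with those arrays normalised on their own, and -1.64 on the values given here. The diabetic arrays differed by 2.31 on the log2 scale for this probe set, and only 0.343% of tested probe sets differed by as much between them, where the median was 0.36. The corresponding gap was 0.66 for D86041_at and 0.78 for U16359cds_at of Nos2, reached by 24.7% and 17.6% of tested probe sets.

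The 250 bases before the annotated start are shown for Ddah1 and Gch1, the 2 members that had a tested probe set with separated groups and an entry in the RefSeq promoter table of build GRCr8. The table had entries for 5 of the 7 members, Nos1, Nos3, Gch1, Ass1 and Ddah1. Capitals mark matches to any of 5 motifs.
Ddah1, chr2:237327562-237327811, plus strand: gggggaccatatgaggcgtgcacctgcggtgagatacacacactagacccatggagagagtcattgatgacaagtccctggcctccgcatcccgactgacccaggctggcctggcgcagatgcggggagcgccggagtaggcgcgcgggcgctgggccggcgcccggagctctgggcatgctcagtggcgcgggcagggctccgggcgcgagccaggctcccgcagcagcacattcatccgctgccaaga
Gch1, chr15:22917413-22917662, minus strand: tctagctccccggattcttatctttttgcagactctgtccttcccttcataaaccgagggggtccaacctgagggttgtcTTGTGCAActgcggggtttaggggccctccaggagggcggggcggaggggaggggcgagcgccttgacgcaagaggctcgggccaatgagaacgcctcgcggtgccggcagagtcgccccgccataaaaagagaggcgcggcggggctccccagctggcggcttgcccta
The motifs, searched on both strands, were the NF-kB motif (in 0.314% of the 33469 promoters of the table over the same 250 bases), TTGCNNAA of C/EBP factors (9.22%), TTCNNNGAA of STAT factors (7.67%), the IRF motif (3.41%) and the core promoter element TATAAA (12.9%). Ddah1 had no match and a GC content of 68.8%, against a median of 51.2% for all promoters. Gch1 had 1 match, TTGCACAA to the C/EBP motif, on the opposite strand 163 to 170 bases before the start, and a GC content of 64.4%. Among the members not printed, Ass1 matched TATAAA on the opposite strand 55 to 60 bases before the start, and Nos1 and Nos3 had no match. These matches are letters in a window, not measured binding sites.

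**Figure D3:**
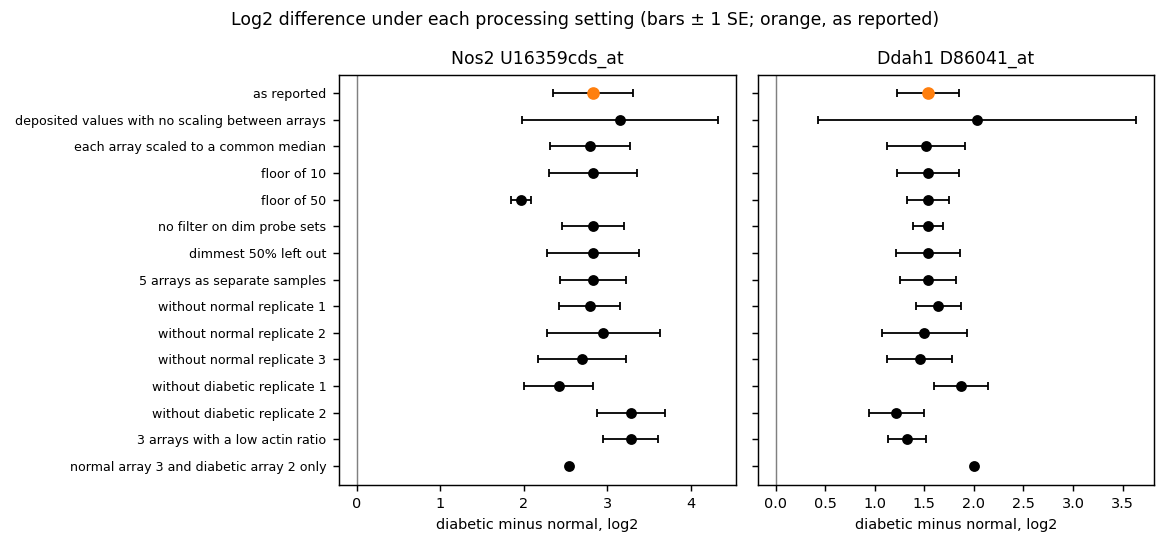
Diabetic minus normal log2 difference (horizontal axis; bars, SE) of U16359cds_at of Nos2 and D86041_at of Ddah1 as reported (orange) and under each alternative (black). The Nos2 values lie between 1.97 and 3.28 and the Ddah1 values between 1.22 and 2.03, all above 0.

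The Nos2 difference was 2.42 without diabetic array 1 and 3.28 without diabetic array 2, and the Ddah1 difference 1.87 and 1.22. On the 3 arrays with the lower actin ratio they were 3.28 and 1.33. Between the normal and diabetic arrays that share a chip lot and day they were 2.54 and 2.00, with no test. With the floor raised to 50 the normal arrays were all at the floor for U16359cds_at, and the Nos2 difference of 1.97 was then a lower bound.

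Among 4989 tested probe sets of other genes, the pattern over the 5 arrays most like U16359cds_at of Nos2 was that of Cxcl13, a B-cell-attracting chemokine. Likeness was the root mean square difference of log2 values, each taken relative to its own normal mean, and was 0.35 for Cxcl13. Next came Spp1 (osteopontin) at 0.38, the protease inhibitor gene Serpina3n at 0.40, Pdlim4, which encodes a PDZ and LIM domain protein, at 0.48 and the complement protease gene C1s at 0.50. Their log2 differences were 2.74 (SE 0.52), 3.15 (SE 0.62), 2.41 (SE 0.35), 2.42 (SE 0.74) and 2.12 (SE 0.43). For Cxcl13 and Pdlim4 1 normal array was at the floor. The normal arrays of Cxcl13, at 5.02, 4.60 and 4.32 on the log2 scale, had a mean under the filter cut of 4.68. Cxcl13 was therefore tested only because its diabetic arrays were high. The 5 patterns were picked for their likeness, so their differences are a description.

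The patterns most like D86041_at of Ddah1 were those of the ferroxidase gene Cp (ceruloplasmin; root mean square difference 0.20), the complement gene C3 (0.25), the cadherin gene Celsr3 (0.27), the zinc finger gene Casz1 (0.27) and the cytochrome P450 gene Cyp2c23 (0.27). Cp differed from normal by 1.69 (SE 0.30) and C3 by 1.87 (SE 0.36). Casz1 differed by 1.44 (SE 0.47), with diabetic arrays at 5.70 and 7.18. Cyp2c23 was at the floor on all 3 normal arrays, so its difference of 1.16 is a lower bound. Celsr3 had a normal mean of 4.56, and both it and Cyp2c23 passed the filter cut of 4.68 only through their diabetic arrays.

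Genes that serve the synthases or carry their signal differed from normal by -0.93 to 0.64 on the log2 scale. Of 41 such genes listed, 20 were tested, and 0 passed limma at an adjusted p under 0.05 or at an unadjusted p under 0.05, which 1.32% of all 3623 tested genes did. Of the 20, 6 lay above and 14 below normal, with a median log2 difference of -0.12 against -0.01 for all genes tested. The median was 0.38 with the arrays unscaled, where the median of all genes was 0.48. The groups were apart with the diabetic arrays higher for 2 of the 20 (10%) and lower for 4 (20%), against 9.83% and 7.01% of all genes. With 1 diabetic pool, a call missed by the test does not show that a gene stayed the same. Ddah2 and Prmt1 were not measured by a probe set with that symbol alone, and Arg2 was too dim to be tested.

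Among arginine genes, Slc7a1, which encodes the cationic amino acid transporter that carries arginine into cells, had normal arrays at 5.39, 5.38 and 5.40 and diabetic arrays at 4.44 and 4.48 on the log2 scale. Both diabetic arrays were below all normal arrays and near the floor, with a difference of -0.93 (SE 0.46; limma, unadjusted p = 0.092, adjusted p = 0.9999). Its other tested probe set differed by -1.18. Odc1, the ornithine decarboxylase of polyamine synthesis, differed by 0.64 (SE 0.48), with diabetic arrays above all normal arrays, and its other probe set by 1.16. Asl, which releases arginine from argininosuccinate, differed by -0.12 (SE 0.33) with overlapping groups.

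Of the remaining tetrahydrobiopterin enzymes, Pts, which follows Gch1 in the pathway, differed by 0.26 (SE 0.43), Spr, its last step, by -0.11 (SE 0.32) and Qdpr, which regenerates the cofactor, by 0.07 (SE 0.36). Of 12 synthase partners listed, 5 were tested, and all 5 lay below normal, with log2 differences of -0.66 to -0.06. All but Cav1 differed by less than their SE. Of all 3623 genes tested, 1841 lay below normal. Cav1, the membrane protein caveolin that binds and holds back Nos3, had diabetic arrays at 9.48 and 9.37 and normal arrays at 9.54 to 10.35, a difference of -0.66 (SE 0.39). Normal array 1 was close to the diabetic values. Adh5, which removes S-nitrosoglutathione, differed by -0.29 (SE 0.24), and the soluble guanylate cyclase subunits Gucy1a1 and Gucy1b1, the receptor for nitric oxide, by -0.16 (SE 0.38) and -0.13 (SE 0.41).

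**Figure D4:**
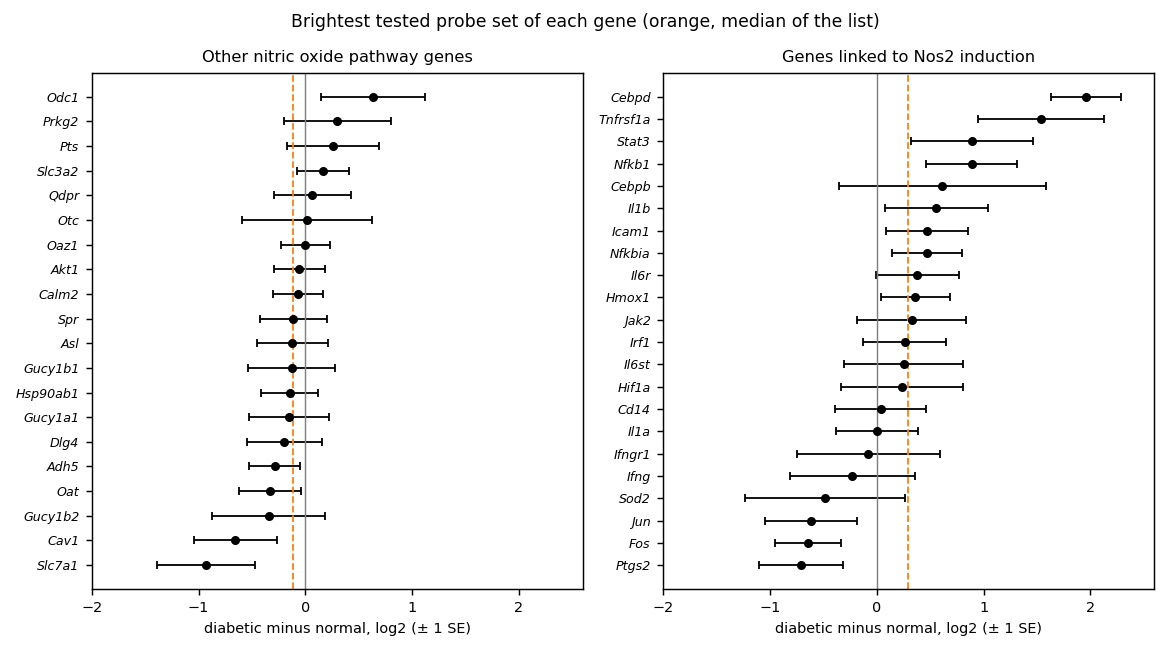
Diabetic minus normal log2 difference with its SE (horizontal axis) for the 20 tested nitric oxide pathway genes other than the members (left) and the 22 tested genes linked to Nos2 induction (right), each by its brightest tested probe set. The list medians (orange) are -0.12 and 0.29.

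Genes linked to the induction of Nos2 by cytokines and stress were read in the same way. Of 30 listed, 22 were tested, 16 above (72.7%, against 49.2% of all genes tested) and 6 below normal, with a median log2 difference of 0.29 against -0.01. The groups were apart with the diabetic arrays higher for 8 (36.4%, against 9.83%) and lower for 2 (9.09%, against 7.01%). This list was chosen with earlier results of these arrays known, so its direction is not independent evidence. By limma 0 passed at an adjusted p under 0.05 and 2, Cebpd and Tnfrsf1a, had an unadjusted p under 0.05, as did 1.32% of all genes. Cebpd, a transcription factor of the acute-phase response, had normal arrays at 8.31, 8.63 and 8.01 and diabetic arrays at 10.15 and 10.39 (difference 1.96, SE 0.33, adjusted p = 0.879). Tnfrsf1a, the main receptor for tumour necrosis factor, read 5.85, 6.80 and 7.16 against 8.35 and 7.93 (1.54, SE 0.59, adjusted p = 0.9999). For both genes the groups were apart, and other tested probe sets of Cebpd went down to 0.21.

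Nfkb1, a subunit of the transcription factor NF-kB, differed by 0.89 (SE 0.42) and Nfkbia, its inhibitor, by 0.47 (SE 0.33), with diabetic arrays above all normal arrays in both. Irf1, an interferon-induced factor that acts on Nos2, differed by 0.26 (SE 0.39) with overlapping groups. Fos, a subunit of the transcription factor AP-1, differed by -0.65 (SE 0.31), with both diabetic arrays below all normal arrays.

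Nos2 is also expressed by microglia and leukocytes, and some but not all of their markers were higher on the diabetic arrays. Of 29 marker genes listed, 18 were on the array, counted whether tested or not. Of these, 13 lay above and 4 below normal, while 49.2% of all genes tested lay above. For 9 of the 18 the diabetic arrays exceeded every normal array, which held for 9.83% of all genes tested. Their summed normalised signal was 2175.7 to 2570 on the normal arrays and 2958.5 and 3259.9 on the diabetic arrays, with no overlap. The gene Ctss made the largest part of these sums. It read 9.90 to 10.30 on normal and 10.41 and 10.60 on diabetic arrays on the log2 scale, against at most 8.23 for C1qb, the next brightest. Aif1, a microglial protein, differed by 0.93 (SE 0.58) and C1qb, a complement subunit made by microglia, by 1.26 (SE 0.91). Normal array 1 read 5.30 for C1qb on the log2 scale, against 7.35 and 7.46 on normal arrays 2 and 3. C1qc, another such subunit, differed by -0.18 (SE 0.32) and Cd48 by -0.08 (SE 0.44), both with overlapping groups. Ptprc, the pan-leukocyte antigen CD45, differed by 0.35 (SE 0.80) with overlapping groups and Cx3cr1, a microglial chemokine receptor, by -0.41 (SE 0.46). Cd8a was at the floor on all arrays, Csf1r on 4 and Itgam on 3. The part of these cells in the Nos2 difference was not tested.

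The summed markers of the cells best known for Nos1 and Nos3 overlapped between the groups. Endothelial markers, 7 of 13 on the array, summed to 2395.9 to 3253.9 on normal and 2364.1 and 2850.5 on diabetic arrays. Kdr dominated these sums, at 10.98 to 11.46 on the log2 scale, against at most 7.48 for Flt1, the next brightest. Of the 7 markers, 1 lay above and 6 below normal, and in none were the groups apart. Vwf was at the floor on 3 arrays. Inner retinal neuron markers, 23 of 25 on the array, summed to 1997 to 3421 on normal and 2571.2 and 2710.3 on diabetic arrays, with Vip at the floor on all 5. Single neuronal markers went opposite ways: the neuropeptide gene Sst (somatostatin) was at no more than 4.76 on the normal arrays and at 6.38 and 6.56 on the diabetic arrays on the log2 scale (difference 1.94, SE 0.48). Npy (neuropeptide Y) read 6.00, 7.24 and 6.26 against 4.32 and 4.78 (difference -1.95, SE 0.63). They were the only 2 of the 23 whose groups were apart, 1 in each direction. Among all genes tested, the diabetic arrays were apart and higher for 9.83% and apart and lower for 7.01%. The part of neurons in the Nos1 values was not tested.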

How the data were processed

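Total RNA of 5 arrays was measured, 3 normal and 2 diabetic. Each deposited value is the intensity of a probe set on a linear scale. The chip type is known per the file headers. How the authors summarised and scaled the probes is not given in the sources used here. Experiment records were used for chip type, lot, day and the note of a repeat run. Several symbols were listed for 308 probe sets and none for 1426. Intensities were quantile normalised, floored at 20 and put on the log2 scale; 59 control probe sets were left out, then the dimmest 30% by the mean of the group means, leaving 6118 of 8740. Symbols came from the platform annotation, matched by Entrez ID to RefSeq (GRCr8) for 6994 of 7006 single-symbol probe sets; 0 changed. A gene is given by its brightest tested probe set unless stated. The diabetic arrays were averaged and set against 3 normal pools with limma 3.58.1 (R 4.3.3, lmFit, eBayes with trend). Tests were two-sided, with Benjamini-Hochberg over all tested probe sets. Residual spread came from the normal pools alone, with 2 degrees of freedom, and the diabetic pool was assumed to vary alike. For SEs and p-values it was moderated towards a trend over all tested probe sets, with 3.54 prior degrees of freedom. The step was tested on simulated data. Alternatives changed the scaling, the floor, the filter, the treatment of the diabetic arrays, the eBayes trend and single arrays. Where arrays were left out, those kept were normalised anew. Members, lists and rules were chosen with earlier results of these data known.

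Named genes were every member probe set, from each list the 4 of largest absolute moderated statistic, 13 others fixed by name, and the 5 patterns most like Nos2 and Ddah1. Other genes were named after their values were seen. Figures used matplotlib 3.10.9. The number of arrays limits the precision.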

Additional observations from a re-analysis of the deposited data

How the results depend on the processing

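No paired analysis was possible because the 2 diabetic arrays are 1 pool, so the replicate numbers pair no samples. limma called 0 probe sets at an adjusted p under 0.05 except with no filter on dim probe sets (170, of which 162 had all normal arrays at the floor and so no spread) and with the 5 arrays as separate samples (13). At an unadjusted p under 0.05 the count of 98 became 34 unscaled, 63 with median scaling, 253 with a floor of 50, 390 with no filter, 246 with separate samples, 538 on the 3 arrays of low actin ratio and 54 to 287 without single arrays. The Nos2 difference (U16359cds_at) was 3.15 unscaled, 1.97 with a floor of 50, 3.28 on the low-actin arrays, 2.54 between the arrays of the shared lot and 2.42 to 3.28 without single arrays. The Ddah1 difference (D86041_at) was 2.03 unscaled, 1.33 on the low-actin arrays, 2.00 in the shared lot and 1.22 to 1.87 without single arrays. Relative to the median of all tested probe sets, which was 0.47 unscaled, those differences were 2.68 and 1.56. Member probe sets with each diabetic array kept above every normal array kept numbered 6 of 12 tested on the low-actin arrays and 9 of 13 in the shared lot. Both settings kept 1 diabetic array, and the shared lot kept 1 normal array, so the 9 give only the direction of 1 pair. Without single arrays the count was 2 to 5. Fewer arrays make separation easier, and the share over all tested probe sets is not given for these settings. The median of the pathway genes was 0.38 unscaled and -0.129 to -0.0403 without single arrays (-0.0403 without normal array 3), that of the induction-linked genes 0.82 unscaled and 0.24 to 0.39. The low-actin and shared-lot settings were chosen after seeing the data. Signals near the floor limit Arg1, 4 probe sets at the floor throughout, and the fold of Nos2.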
